A study of Mus musculus with 6 samples.

Results

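The enzymes that build cholesterol and the proteins that switch their genes through the transcription factor SREBP2 were described in mouse bone marrow derived macrophages. The 29 genes were chosen by name, from acetyl-CoA supply to sterol transport, with earlier results of these data known. Each was found among the 52459 genes of the count table. All 29 also passed the filter on low counts, which left 14857 genes. RNA was sequenced from 6 libraries of C57BL/6 marrow cells cultured in GM-CSF, a growth factor under which marrow gives rise to macrophages and other myeloid cells. The RIP1i group held 3 libraries of cells given RIP1i overnight from day 7, and the DMSO group held 3 libraries of cells given the solvent DMSO over the same time. RIP1i is named in the labels only by its target, the kinase RIP1, which relays TNF receptor signals to NF-kB and cell death, with neither compound nor dose. The comparison asks how RIP1i changes the macrophage transcriptome.

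Cells make cholesterol from acetyl-CoA through mevalonate, isoprenoid diphosphates, squalene and a series of sterols. When membranes of the endoplasmic reticulum hold little cholesterol, the escort protein SCAP carries SREBP2 to the Golgi, where a pair of proteases frees the part that enters the nucleus and raises the genes of the pathway. When cholesterol is plentiful, INSIG proteins hold SCAP in place and the pathway falls. Macrophages also take up much cholesterol from outside, which keeps this loop under strong feedback.

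Library totals ran from 40729238 to 42378138 counts in RIP1i and from 40264902 to 44862310 counts in DMSO. Levels below are CPM, counts scaled to library size with TMM factors, unless FPKM is named. All 11 macrophage markers were well covered, among them Cd68 with 23262 to 25348 counts in RIP1i libraries and 25076 to 26371 counts in DMSO libraries. Their sum, mostly Lyz2, was 52800, 46418 and 55390 CPM in RIP1i replicates 1 to 3. In DMSO replicates 1 to 3 it was 54869, 60528 and 53059 CPM, so RIP1i replicates 1 and 2 lay below all DMSO libraries. Whether the 3 libraries of each treatment came from different cultures or mice is not stated in the labels. The p-values therefore cover only how far these libraries differ, which may not be how far cultures or mice differ. Pairs of libraries within a group differed by more than read sampling alone. Over genes with at least 50 counts in a pair, chi-square per degree of freedom was 13.9 to 20.8 in DMSO. In RIP1i it was 33.8 to 40.6, and the source of this spread was not tested. In bulk RNA, fewer cells of a type and less RNA per cell cannot be told apart.

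Most cholesterol synthesis genes were measured slightly higher in RIP1i, and none of the 29 passed the test. With edgeR's quasi-likelihood test, 26 of the 29 genes were fitted higher in RIP1i, a share of 89.7% against 51% of all genes tested, and 3 were fitted lower, against 49%. The number past an adjusted p under 0.05 was 0 of 29, against 0% of all genes, and limma-voom and DESeq2 likewise called 0 of the 29 (0 and 2 of all genes). Before adjustment, 11 genes (37.9%) had a p under 0.05, against 6.21% of all genes. All 11 were fitted higher, where 3.59% of all genes had such a p, and 0 were fitted lower, where 2.62% had. Every RIP1i library lay above every DMSO library for 8 genes (27.6%), against 7.36% of all genes, and below for 0, against 6.18%. The median log2 fold change was 0.10 over the 29 genes and 0.0025 over all genes. Among the 7235 genes at a like level, between 10.7 and 155 CPM, 58.3% were fitted higher, 7.98% had an unadjusted p under 0.05 and 9.38% lay above without overlap.

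The differences were small and fairly well bounded. The fitted difference ran from -8.49% for Acss2 to 21.5% for Idi1. For 28 of 29 genes (96.6%) the 95% confidence interval held no fold change above 1.5 in either direction, against 73.0% of all genes. The exception was Acss2. The count of 11 at an unadjusted p under 0.05 moved with single libraries, and so did the share of all genes. It was 14 without RIP1i replicate 2, against 6.94% of all genes in that fit, 5 without RIP1i replicate 1 (4.61%) and 7 without RIP1i replicate 3 (5.72%). Leaving out DMSO replicate 1 gave 6 (4.01%), DMSO replicate 2 gave 7 (3.81%) and DMSO replicate 3 gave 7 (6.03%). The replicate number as a block gave 6 (2.78%). Leaving out 1 library moved the log2 fold change by over 1.5 times for 22 of the 29 genes. The other 7 were Acat2, Hmgcs1, Sqle, Lbr, Msmo1, Erg28 and Hsd17b7.

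**Figure D1:**
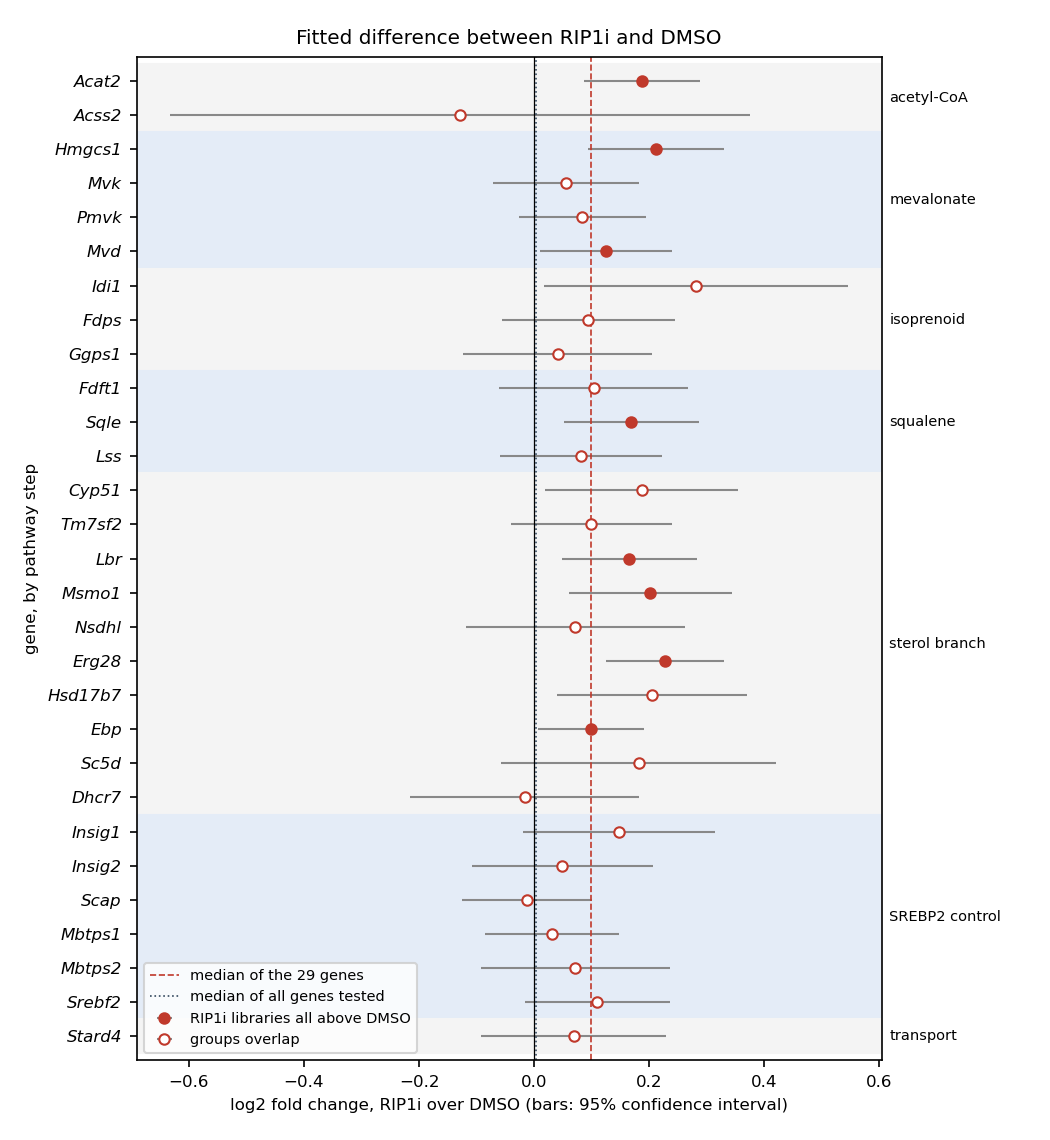
Fitted log2 fold change, RIP1i over DMSO, of the 29 genes in pathway order, with 95% confidence intervals from edgeR. Filled points are the 8 genes whose RIP1i libraries all lay above the DMSO libraries, and the dashed and dotted lines are the medians of the 29 genes (0.10) and of all 14857 genes tested (0.0025).

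The 8 genes with RIP1i above DMSO in every library were Acat2, Hmgcs1, Mvd, Sqle, Lbr, Msmo1, Erg28 and Ebp. SREBP2 binds sterol regulatory elements and is known to act together with NF-Y, which binds the CCAAT box, so the bases before the start sites of these genes were read for both. The table of RefSeq promoters (build GRCm38.p6) held 25 of the 29 genes, without Sqle, Fdps, Fdft1 and Stard4. The 250 bases before the start are shown 5′ to 3′ on the gene's strand for 5 of the 8 genes. Capitals mark matches, on either strand, to CCAAT and to CACNCCAC, the core of a sterol regulatory element, and no 2 matches overlap.
Acat2 (chr17:12960726-12960975, minus strand): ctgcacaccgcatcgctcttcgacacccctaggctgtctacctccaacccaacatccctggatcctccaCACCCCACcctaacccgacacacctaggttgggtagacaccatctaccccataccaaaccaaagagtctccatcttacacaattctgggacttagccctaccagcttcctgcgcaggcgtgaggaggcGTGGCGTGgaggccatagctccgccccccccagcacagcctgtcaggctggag
Hmgcs1 (chr13:119690101-119690350, plus strand): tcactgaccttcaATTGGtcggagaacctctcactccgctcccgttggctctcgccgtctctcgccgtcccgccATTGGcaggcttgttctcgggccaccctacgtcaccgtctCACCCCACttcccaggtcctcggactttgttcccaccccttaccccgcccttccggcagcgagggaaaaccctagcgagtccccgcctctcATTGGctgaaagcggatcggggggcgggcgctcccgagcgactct
Mvd (chr8:122443423-122443672, minus strand): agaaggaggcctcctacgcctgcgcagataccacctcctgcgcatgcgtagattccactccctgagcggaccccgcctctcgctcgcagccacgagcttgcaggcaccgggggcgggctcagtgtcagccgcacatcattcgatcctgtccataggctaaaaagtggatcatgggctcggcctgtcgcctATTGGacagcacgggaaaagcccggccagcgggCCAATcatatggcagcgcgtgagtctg
Erg28 (chr12:85824894-85825143, minus strand): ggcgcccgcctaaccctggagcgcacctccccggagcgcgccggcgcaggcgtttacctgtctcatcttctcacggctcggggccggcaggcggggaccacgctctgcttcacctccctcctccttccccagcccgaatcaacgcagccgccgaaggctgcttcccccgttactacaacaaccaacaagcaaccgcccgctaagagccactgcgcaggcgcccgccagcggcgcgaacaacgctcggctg
Ebp (chrX:8193513-8193762, minus strand): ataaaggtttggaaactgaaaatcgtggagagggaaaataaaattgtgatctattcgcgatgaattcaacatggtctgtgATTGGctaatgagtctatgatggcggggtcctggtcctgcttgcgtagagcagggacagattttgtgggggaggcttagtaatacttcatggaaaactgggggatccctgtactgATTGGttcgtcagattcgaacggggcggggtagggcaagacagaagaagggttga
Hmgcs1 had 1 match to the sterol core and 3 to CCAAT, and Acat2 had 2 and 0. Mvd and Ebp each had 0 matches to the sterol core and 2 to CCAAT, and Erg28 had 0 of both. On the minus strand the GENCODE model of Erg28 starts at 85824550, so the bases shown for it lie further upstream of that model. For Acat2, 22 of the bases shown lie inside the GENCODE model of the gene. Msmo1 (3 CCAAT matches) and Lbr (2) are not printed, since 214 and 250 of these bases lie inside their GENCODE models.

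CCAAT was found in the 250 bases of 20 of the 25 genes (80%), against 40.3% of the 10234 tested genes with a promoter in the table. The sterol core was found in 3 of 25 (12%), which were Acat2, Hmgcs1 and Insig1, against 6.60%. A match is a description of letters, not of a bound site, and sites outside this window were not searched.

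The thiolase and synthetase genes that open the pathway were fitted in different directions. Acat2 (chromosome 17, 12942890 to 12960747, minus strand) encodes the thiolase that joins acetyl-CoA units. It had 36.4, 37.0 and 38.3 CPM in RIP1i replicates 1 to 3, against 33.2, 33.2 and 31.6 CPM in DMSO replicates 1 to 3. The groups did not overlap, and each spread over less than the gap between the group means. The log2 fold change was 0.19 ± 0.043 (SE), with an adjusted p of 0.777. Of the stretches of 50 bases in its transcripts, 39.1% also occur in Acat3, a near-identical copy. Acat3 itself had 2 to 6 counts in RIP1i libraries and 2 to 10 in DMSO libraries, against at least 1335 for Acat2. Acss2, which makes acetyl-CoA from acetate, had 23.6, 15.4 and 28.4 CPM in RIP1i, against 24.02, 28.99 and 20.7 CPM in DMSO. It was the most variable of the 29 genes in both groups, with RIP1i replicate 2 lowest of all libraries. Its log2 fold change was -0.13 ± 0.22 (SE), and 0.074 without RIP1i replicate 2.

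All 4 genes of the mevalonate steps were fitted higher in RIP1i. Hmgcs1 (chromosome 13, 119690379 to 119708260, plus strand) encodes the synthase that commits carbon to the pathway. It had 156, 155 and 173 CPM in RIP1i, against 141, 136 and 141 CPM in DMSO. RIP1i replicate 3 stood highest, and the other RIP1i libraries were nearly equal and still above all DMSO libraries. The log2 fold change was 0.21 ± 0.051 (SE), a difference of 15.9%, with an adjusted p of 0.777. Of its stretches of 50 bases, 11.6% also occur in other genes. Mvd, the decarboxylase that ends the mevalonate steps, had 84.2, 88.2 and 84.9 CPM in RIP1i, against 74.1, 79.4 and 82.5 CPM in DMSO. The groups were separate by a narrow margin, between RIP1i replicate 1 and DMSO replicate 3, and the log2 fold change was 0.12 ± 0.049 (SE). The mevalonate kinase gene Mvk (19.4 to 20.6 CPM in RIP1i, 18.3 to 19.9 in DMSO) and the phosphomevalonate kinase gene Pmvk (27.9 to 29.1 in RIP1i, 26.1 to 28.1 in DMSO) overlapped between groups, with log2 fold changes of 0.055 ± 0.054 and 0.084 ± 0.047 (SE). RIP1i replicate 2 was the highest of all libraries for Mvk, Pmvk and Mvd, and the lowest RIP1i library for Hmgcs1.

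In the isoprenoid steps all 3 genes were fitted higher. Idi1, the isomerase of isopentenyl diphosphate, had 11.9, 9.97 and 13.4 CPM in RIP1i, against 10.4, 9.26 and 9.37 CPM in DMSO. RIP1i replicates 1 and 3 lay above DMSO, and RIP1i replicate 2 lay within the DMSO range. Its log2 fold change of 0.28 ± 0.11 (SE) was the highest of the 29, at the lowest counts of the list (372 to 556), and 25.3% of its stretches of 50 bases also occur in other genes. Without RIP1i replicate 3 it was 0.17. Fdps, which makes farnesyl diphosphate, had 38.2 to 43.1 CPM in RIP1i and 36.3 to 40.8 CPM in DMSO, with a log2 fold change of 0.094 ± 0.065 (SE), and 26.2% of its stretches of 50 bases also occur in other genes. Ggps1, which makes a lipid anchor of proteins, had 43.9 to 52.4 CPM in RIP1i and 45.8 to 49.6 CPM in DMSO, at 0.041 ± 0.071 (SE). In both genes RIP1i replicate 3 was highest and RIP1i replicate 2 lay below part or all of the DMSO libraries. Ggps1 was at -0.017 without RIP1i replicate 3.

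The squalene steps, which commit carbon to sterols, were likewise all fitted higher. Sqle (chromosome 15, 59315077 to 59331192, plus strand) encodes squalene epoxidase, a rate-limiting enzyme of the pathway. It had 123, 117 and 133 CPM in RIP1i, against 110.0, 112 and 109.6 CPM in DMSO. The DMSO libraries lay within a range of 0.025 on the log2 scale and the RIP1i libraries within 0.18, without overlap. The log2 fold change was 0.17 ± 0.050 (SE), with an adjusted p of 0.777. Fdft1, squalene synthase, had 50.9 to 59.4 CPM in RIP1i and 48.6 to 54.0 CPM in DMSO, at 0.10 ± 0.071 (SE). Lss, lanosterol synthase, had 74.3 to 85.9 CPM in RIP1i and 73.7 to 79.4 CPM in DMSO, at 0.082 ± 0.061 (SE). Both overlapped, with RIP1i replicates 1 and 3 the highest libraries. Of the stretches of 50 bases of Fdft1, 17.2% also occur in Ctsb, which overlaps its locus and had 267875 to 281069 counts in RIP1i libraries and 264156 to 291497 in DMSO libraries. How reads shared by such genes were counted is not given in the sources used here, so the Fdft1 value is uncertain.

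The 10 genes that turn lanosterol into cholesterol held the most members at a low p. Of these, 9 were fitted higher, 6 had an unadjusted p under 0.05 and 4 lay above DMSO in every RIP1i library, with a median log2 fold change of 0.17. Erg28 (chromosome 12, 85815448 to 85824550, minus strand) encodes a protein known from yeast as a scaffold for the enzymes that remove sterol methyl groups. It had 32.2, 32.0 and 32.4 CPM in RIP1i, against 26.9, 28.6 and 26.98 CPM in DMSO. The RIP1i libraries were nearly equal and all above DMSO. The log2 fold change was 0.23 ± 0.044 (SE), a difference of 17.1%, with the 7th smallest p of all genes tested and an adjusted p of 0.777. It ran from 0.20 to 0.25 as each library was left out in turn.

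Msmo1 (chromosome 8, 64718139 to 64733792, minus strand), the oxidase that starts removal of a pair of these methyl groups, had 166, 154 and 178 CPM in RIP1i, against 152, 143 and 138 CPM in DMSO. The groups did not overlap, with RIP1i replicate 2 just above DMSO replicate 1, and the log2 fold change was 0.20 ± 0.061 (SE). Nsdhl, the dehydrogenase that follows it, had 34.3 to 42.9 CPM in RIP1i and 36.0 to 38.2 CPM in DMSO, at 0.072 ± 0.082 (SE), and at 0.00032 without RIP1i replicate 3 and 0.15 without RIP1i replicate 2. Hsd17b7, the ketoreductase after that, had 34.5, 29.99 and 35.4 CPM in RIP1i, against 28.2, 30.4 and 28.1 CPM in DMSO. In both genes RIP1i replicates 1 and 3 lay above DMSO and RIP1i replicate 2 did not, and Hsd17b7 had 0.20 ± 0.071 (SE). Cyp51, the demethylase that acts on lanosterol, had 168, 148 and 179 CPM in RIP1i, against 146, 151 and 138 CPM in DMSO. RIP1i replicates 1 and 3 were the highest libraries and RIP1i replicate 2 lay within the DMSO range, with a log2 fold change of 0.19 ± 0.072 (SE).

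A pair of sterol reductases act on the same intermediate, Lbr, which is also a lamin receptor of the nuclear envelope, and Tm7sf2. Lbr had 46.9, 47.9 and 44.2 CPM in RIP1i, against 41.1, 39.7 and 43.1 CPM in DMSO, without overlap and with RIP1i replicate 2 the highest. Its log2 fold change was 0.17 ± 0.050 (SE), and Tm7sf2 had 0.10 ± 0.060 (SE) with overlap. Ebp, the sterol isomerase, had 59.2, 59.6 and 61.0 CPM in RIP1i, against 54.2, 56.6 and 57.1 CPM in DMSO. The groups were separate and both narrow, at a log2 fold change of 0.099 ± 0.039 (SE). Sc5d, the desaturase, had 101, 84.4 and 115 CPM in RIP1i, against 90.01, 90.2 and 84.6 CPM in DMSO, so that the RIP1i libraries lay on both sides of DMSO, at 0.18 ± 0.10 (SE). Leaving out RIP1i replicate 3 gave 0.064, and leaving out RIP1i replicate 2 gave 0.28. Dhcr7, the reductase that finishes cholesterol, had 32.4, 30.4 and 38.3 CPM in RIP1i, against 34.4, 35.4 and 32.6 CPM in DMSO. It was the only one of the 10 genes fitted lower, at -0.017 ± 0.086 (SE), and its sign turned in 3 of the fits that left out 1 library.

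**Figure D2:**
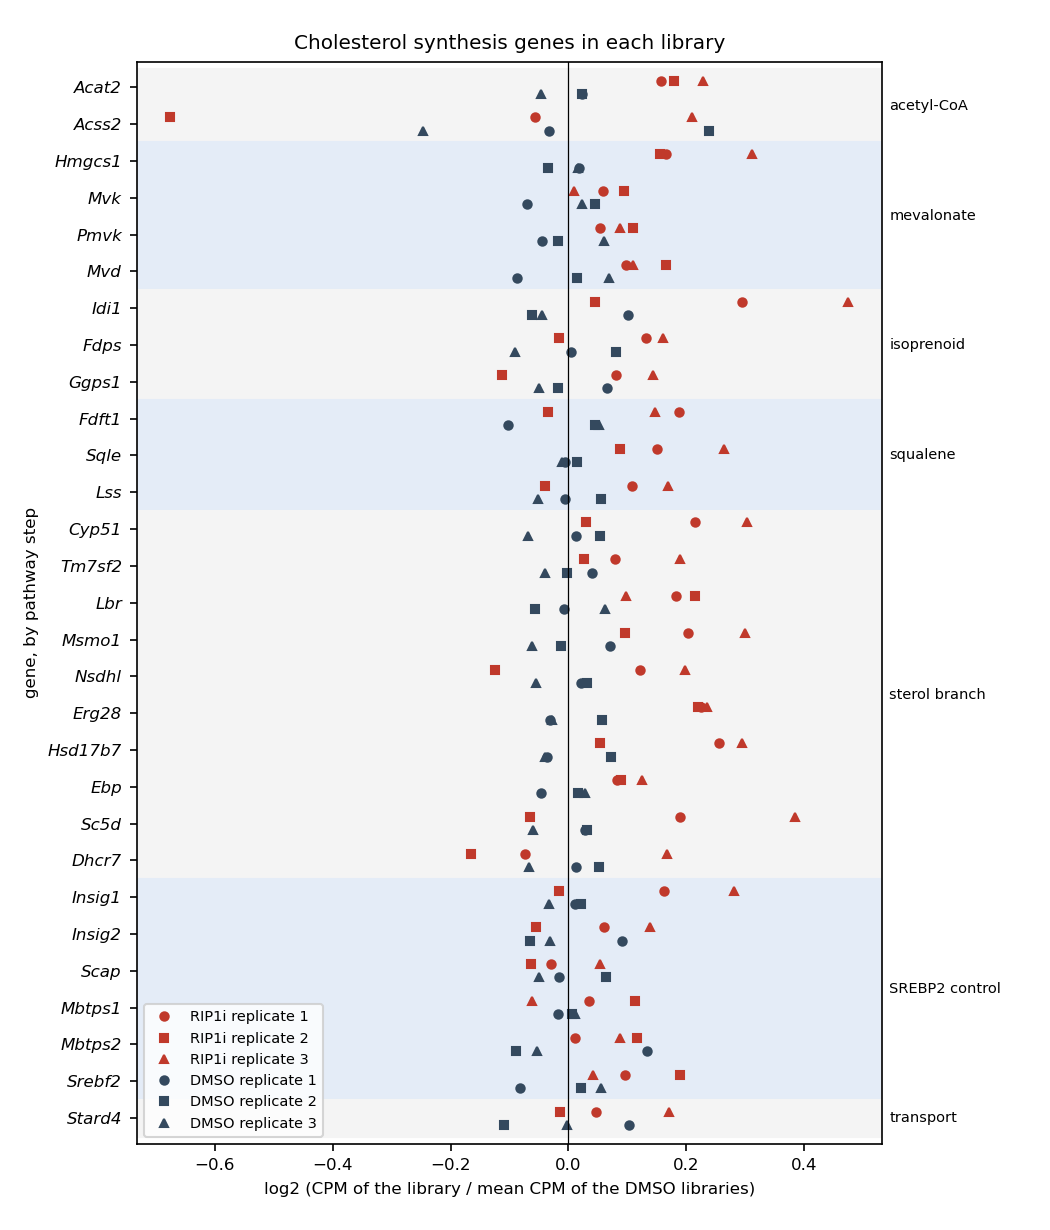
Each point is 1 library, placed by the log2 ratio of its CPM to the mean of the DMSO libraries, with the RIP1i libraries (red) drawn above the DMSO libraries (dark) in each row. RIP1i replicates 1 and 3 both lie to the right of all DMSO libraries for 19 of the 29 genes, and RIP1i replicate 2 (red square) does so for 12.

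The genes that control SREBP2 were fitted closer to equal than the enzymes, and this difference between the groups of genes was not tested. Of these 6 genes, 5 were fitted higher, 0 had an unadjusted p under 0.05 and 0 were separate between groups, with a median log2 fold change of 0.060, against 0.11 for the 22 genes of the enzymes with Erg28. Srebf2 (chromosome 15, 82147181 to 82205379, plus strand), which encodes SREBP2, had 127, 135 and 122 CPM in RIP1i, against 112, 120.2 and 123 CPM in DMSO. RIP1i replicate 3 lay below DMSO replicate 3, and RIP1i replicate 2 was the highest library. Its log2 fold change was 0.11 ± 0.054 (SE), with a 95% interval from -0.016 to 0.24.

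Insig1 and Insig2 encode the proteins that hold SCAP back, and Insig1 is itself a target of SREBP2. Insig1 had 111, 97.8 and 120.1 CPM in RIP1i, against 99.7, 100.3 and 96.6 CPM in DMSO. RIP1i replicates 1 and 3 were the highest libraries, as for most enzymes, and RIP1i replicate 2 lay among the DMSO libraries. The log2 fold change was 0.15 ± 0.072 (SE), 0.072 without RIP1i replicate 3 and 0.21 without RIP1i replicate 2. Insig2 had 0.049 ± 0.067 (SE). Insig2 and Scap overlapped between groups, with 24.2 to 27.7 and 69.8 to 75.7 CPM in RIP1i, against 24.1 to 26.8 and 70.5 to 76.2 CPM in DMSO. Scap had -0.012 ± 0.049 with an interval from -0.13 to 0.10, and turned to 0.014 without DMSO replicate 2. The protease genes Mbtps1 and Mbtps2 had 0.031 ± 0.050 and 0.071 ± 0.071 (SE), with 85.7 to 96.8 and 20.8 to 22.3 CPM in RIP1i, against 88.3 to 90.2 and 19.4 to 22.6 CPM in DMSO. Of the stretches of 50 bases of Mbtps2, 27.7% also occur in Yy2, which lies within its locus and had 0 counts in every library. Stard4, which moves cholesterol between membranes, had 56.0, 53.7 and 61.0 CPM in RIP1i, against 58.2, 50.3 and 54.1 CPM in DMSO, at 0.069 ± 0.069 (SE) with overlap.

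The RIP1i libraries did not share the pattern equally. RIP1i replicate 3 was the highest of the 6 libraries for 19 of the 29 genes, where it was the highest for 22.3% of all genes. RIP1i replicate 1 lay above the whole DMSO range for 22 of 29 (22.6% of all genes), RIP1i replicate 3 for 23 (29.5%) and RIP1i replicate 2 for 12 (31.6%). RIP1i replicate 2 lay below the DMSO range for 6 genes (20.7%), a smaller share than the 31.8% of all genes. These were Acss2, Ggps1, Nsdhl, Sc5d, Dhcr7 and Scap. Replicates 1 and 3 were both above all DMSO libraries for 19 genes (65.5%), against 13.4% of all genes. Of these 19 genes, RIP1i replicate 2 was above DMSO for 8, within its range for 8 and below it for 3.

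**Figure D3:**
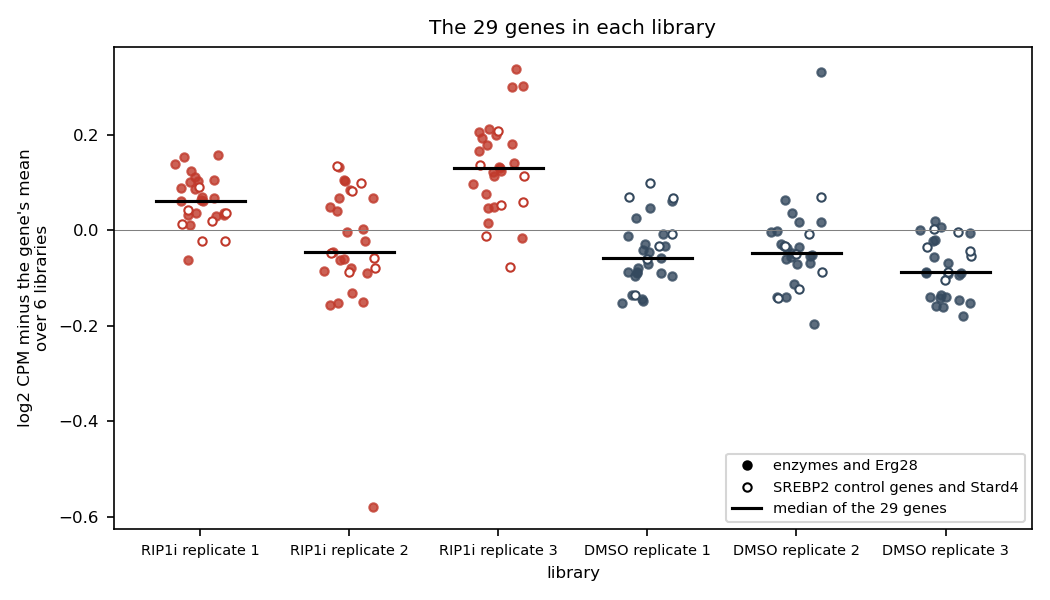
Each point is 1 of the 29 genes in 1 library, as log2 CPM minus that gene's mean over the 6 libraries, with the median of the library as a bar. The medians are 0.062, -0.046 and 0.13 in RIP1i replicates 1 to 3 and -0.057, -0.048 and -0.088 in DMSO replicates 1 to 3, and the lowest point is Acss2 in RIP1i replicate 2.

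Summed over the 29 genes, the level was 1920, 1818 and 2018 CPM in RIP1i replicates 1 to 3, against 1759, 1776 and 1733 CPM in DMSO replicates 1 to 3. The groups were separate, with RIP1i replicate 2 nearest to DMSO, and the ratio of the means was 1.09. The 22 genes of the enzymes with Erg28 summed to 1413 ± 92.7 CPM in RIP1i and 1276 ± 21.02 CPM in DMSO (SD, n = 3 each). The 6 genes that control SREBP2 summed to 449 ± 3.74 CPM in RIP1i and 426 ± 4.32 CPM in DMSO (SD, n = 3 each). Their sums were also separate between groups, though none of these genes was so alone, and the ratio of the means was 1.05. These sums weigh the abundant genes most and were not tested.

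Markers of other cells varied within both groups. The summed level of 12 stromal markers was 273, 95.5 and 226 CPM in RIP1i replicates 1 to 3, against 239, 422 and 108 CPM in DMSO replicates 1 to 3. The summed level of 10 markers of neutrophils and their precursors was 467, 662 and 224 CPM in RIP1i, against 460, 229 and 628 CPM in DMSO. Within each group the library with the lowest neutrophil sum had the highest sum over the cholesterol genes, and the one with the highest neutrophil sum had the lowest. In neither list did a marker reach an unadjusted p under 0.05 between the groups. With the log2 stromal sum as a covariate, 13 of the 29 genes had an unadjusted p under 0.05, against 8.47% of all genes in that fit, at a median log2 fold change of 0.11. With the neutrophil sum these were 13, against 10.2% of all genes, and 0.10, and no gene passed in either fit. Both fits were chosen after seeing the data. Dendritic cell markers (7 of 8 tested) summed to 1320 to 1459 CPM in RIP1i and 1211 to 1368 CPM in DMSO. Most of this was Itgax, at 1279 to 1402 CPM in RIP1i and 1173 to 1317 CPM in DMSO. Mast cell and basophil markers (7 of 8 tested) summed to 168 to 207 CPM in both groups, with Mcpt4 at 0 in every library. Most of this was Kit, at 157 to 184 CPM in RIP1i and 161 to 186 CPM in DMSO. Each of these sums thus mainly follows a single gene. The B cell, T and NK cell and erythroid lists each summed to at most 2.21 CPM in RIP1i and 2.41 CPM in DMSO.

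Levels between genes were compared as the deposited FPKM values, which divide by gene length. Mvd was the highest of the 29 genes, at 46.0 ± 1.37 FPKM in RIP1i and 42.3 ± 2.43 FPKM in DMSO (SD, n = 3 each). Cyp51, Insig1 and Hmgcs1 followed at 37.3 ± 3.34, 35.3 ± 3.38 and 34.9 ± 1.94 FPKM in RIP1i, and at 32.8 ± 1.30, 31.9 ± 0.526 and 30.2 ± 0.661 FPKM in DMSO, without differing from one another in RIP1i beyond their spread. Mbtps2 was the lowest, at 2.14 ± 0.0854 FPKM in RIP1i and 2.04 ± 0.170 FPKM in DMSO, and its neighbour Acss2 stood at 2.20 ± 0.633 and 2.41 ± 0.409 FPKM. Per length, Insig1 was 4.71 ± 0.166 times the level of Insig2 in RIP1i and 4.42 ± 0.251 times in DMSO. Lbr was 1.82 ± 0.180 times the level of Tm7sf2 in RIP1i and 1.73 ± 0.107 times in DMSO. Erg28, with its high rank by p, was of modest level, at 7.58 ± 0.0115 FPKM in RIP1i and 6.49 ± 0.221 FPKM in DMSO.

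**Figure D4:**
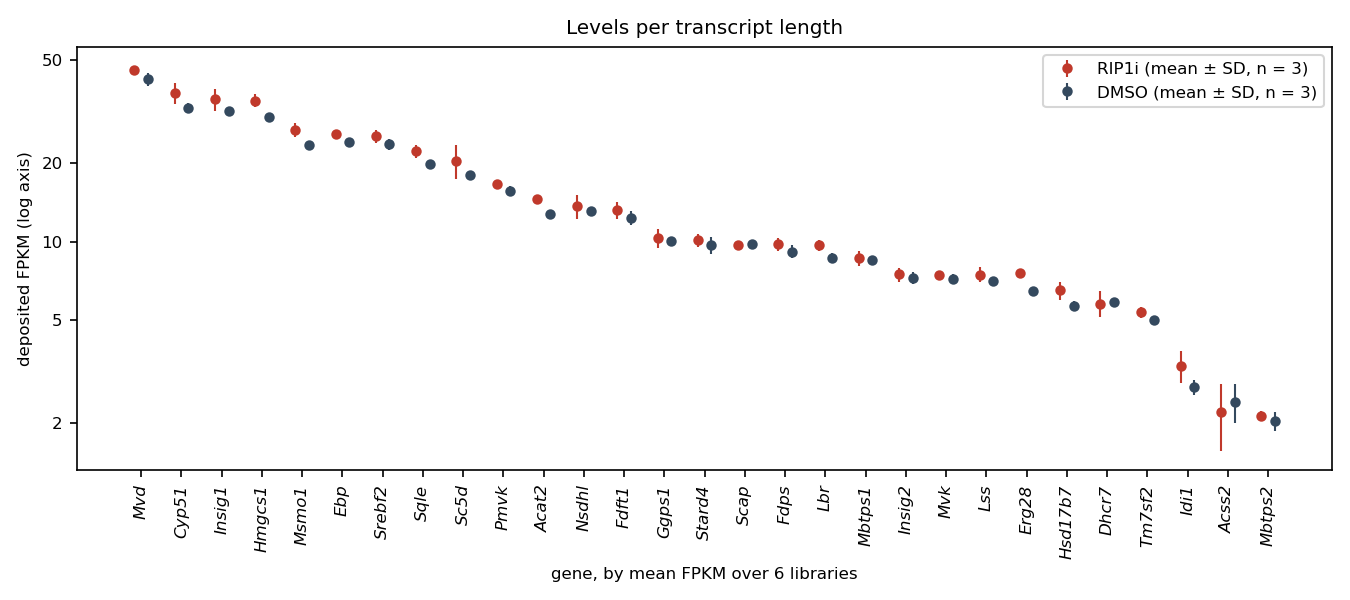
Deposited FPKM of the 29 genes on a log axis, as mean and SD of 3 RIP1i libraries (red, left) and 3 DMSO libraries (dark, right), in order of mean level. Levels span from 46.0 FPKM for Mvd to 2.14 FPKM for Mbtps2 in RIP1i, with the RIP1i mean above the DMSO mean except for Scap, Dhcr7 and Acss2.

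Neighbouring lipid genes were read from 6 lists, and 0 of their tested genes passed an adjusted p under 0.05. Of 14 genes of SREBP1 and fatty acid synthesis, 10 were fitted higher and 4 lower, with 3 at an unadjusted p under 0.05, all higher, and a median log2 fold change of 0.032. Acsl3, which activates fatty acids, had 29.99 ± 1.55 CPM in RIP1i and 24.5 ± 1.23 CPM in DMSO (SD, n = 3 each), a log2 fold change of 0.29 ± 0.059 (SE). The elongase genes Elovl5 and Elovl6 had 0.16 ± 0.047 and 0.15 ± 0.062 (SE), and all 3 were separate between groups. Of 16 genes of the nonsterol isoprenoid branch, which feeds prenylation, dolichol and ubiquinone, 10 were fitted higher and 0 reached an unadjusted p under 0.05, with a median of 0.025. The lowest p there belonged to Pggt1b, a subunit of a prenyltransferase, at 0.16 ± 0.069, then Zmpste24, a protease of prenylated lamin, at 0.095 ± 0.053, and Nus1, a subunit of dolichol synthesis, at 0.078 ± 0.058 (SE).

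Of 13 genes that degrade sterol-regulated proteins of the endoplasmic reticulum, 9 were fitted higher and 1 reached an unadjusted p under 0.05, with a median of 0.017. That was Sel1l, a subunit of a ubiquitin ligase, at 0.082 ± 0.035, followed by Erlin2 at 0.087 ± 0.041 and the ligase gene Rnf139 at 0.11 ± 0.057 (SE). Of 14 genes of cholesterol transfer and esterification, 9 were fitted higher and 0 reached that p, with a median of 0.0088. Tmem41b had 0.11 ± 0.061, the sterol transfer gene Gramd1b -0.073 ± 0.045 and the sterol carrier gene Stard3 -0.090 ± 0.057 (SE). Of the 6 genes of oxysterol synthesis 4 were tested, with 1 fitted higher and 3 lower and a median of -0.12. Cyp27a1, a sterol hydroxylase, had 25.5 ± 1.06 CPM in RIP1i and 28.04 ± 0.666 CPM in DMSO (SD, n = 3 each), at -0.13 ± 0.049 (SE). Cyp39a1, another hydroxylase, had -0.44 ± 0.18 (SE) at low counts, 40 to 53 in RIP1i libraries and 64 to 67 in DMSO libraries. Both hydroxylase genes had an unadjusted p under 0.05 and RIP1i libraries all below DMSO. Hsd3b7, an oxysterol dehydrogenase, had -0.11 ± 0.097 (SE). Of 10 genes for partners and regulators of SREBP 9 were tested, with 6 fitted higher, 3 at an unadjusted p under 0.05 and a median of 0.016. These 3 were the transcription factor gene Creb1 at 0.18 ± 0.057, the deacetylase gene Sirt1 at 0.18 ± 0.069 and Sp1, a factor that binds GC boxes, at 0.11 ± 0.043 (SE), each separate between groups.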

How the data were processed

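RNA from mouse bone marrow derived macrophages was sequenced in 3 RIP1i and 3 DMSO libraries, built from 1 ug of total RNA with an Illumina TruSeq kit per the labels' protocols. The authors deposited raw read counts per gene and FPKM values for the same libraries. DESeq2 1.14.0, Subread 1.4.6-p3, featureCounts, STAR 2.5.3a and CASAVA 1.8.4 are named with the build mm10 in the submitters' processing notes. Their roles, the annotation, the strand setting and the handling of shared reads were not given in the sources used here. Over 5560 well-covered genes the library scaling of the deposited FPKM differed from median-of-ratios size factors by at most 0.000149%, so both units rest on the same reads.

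Counts were filtered with filterByExpr (minimum count 10, minimum total 15), scaled by TMM and tested in R 4.3.3 with edgeR 4.0.16, using its 2-sided quasi-likelihood test, with treatment as the only term and Benjamini-Hochberg adjustment over all 14857 genes. Fold changes are RIP1i over DMSO. SE came from the F statistic and intervals from the t distribution. The fit was also run on simulated counts, in which the changes set were all larger than those fitted for the 29 genes. That run therefore does not bear on their differences. DESeq2 1.42.0 and limma 3.58.1 were used for alternatives. Coordinates are GENCODE M21 on GRCm38, the assembly of mm10. Shared stretches were taken from its transcripts on either strand. Members, gene lists and tests were chosen with earlier results of these data known. All 29 genes are named whatever their result, with the 3 lowest p of each other list.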

Additional observations from a re-analysis of the deposited data

How the results depend on the processing

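Across the alternatives the median log2 fold change of the 29 genes stayed between 0.073 and 0.16, and from 24 to 28 genes were fitted higher. The number of the 29 past the adjusted threshold was 0 in each of them, and the smallest adjusted p of any of the 29 was 0.296, in DESeq2. Over all genes DESeq2 called 2, limma-trend on log2(FPKM + 1) without a filter on low values called 4, and the other alternatives called 0. The share of all genes fitted higher ran from 46.1% to 52.8%.

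The deviations of same-numbered libraries from their group means correlated over genes at 0.0058, -0.53 and -0.48 for numbers 1 to 3. Among differently numbered libraries the highest value was 0.60, for RIP1i replicate 2 with DMSO replicate 3. With 3 libraries per group such correlations cannot settle whether the samples were paired. With the replicate block, the number of the 29 at an unadjusted p under 0.05 was 6 instead of 11, and the share of all genes 2.78% instead of 6.21%. Leaving out 1 library gave from 5 to 14 such genes (3.81% to 6.94% of all genes), and from 9 to 19 genes without overlap (20.6% to 25.2%). The 19 without RIP1i replicate 2 restate how the other RIP1i libraries lay and are no added support. Without DMSO replicate 2 and RIP1i replicate 2, the libraries of extreme stromal marker level, 19 genes did not overlap, where 41.3% of all genes did not, since fewer libraries overlap less often.

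As each library was left out in turn, Acss2 ran from -0.34 to 0.074, Dhcr7 from -0.12 to 0.041, Ggps1 from -0.017 to 0.10, Insig2 from -0.00078 to 0.088, Mbtps1 from -0.023 to 0.071, Mbtps2 up to 0.13 and Scap from -0.050 to 0.014. Among 551 single-gene values, 16 changed sign, in 7 genes, and the cause was not tested. Without RIP1i replicate 2, Acss2 was at 0.074, Dhcr7 at 0.041, Scap at 0.0023 and Mbtps1 at -0.023. Without DMSO replicate 2 and RIP1i replicate 2 these were at 0.21, 0.065, 0.032 and -0.022, and Mbtps2 was at -0.0060. Without DMSO replicate 2, Dhcr7 was at 0.0027 and Scap at 0.014. Without RIP1i replicate 1, Dhcr7 was at 0.0013. Without RIP1i replicate 3, Ggps1 was at -0.017 and Insig2 at -0.00078. With the stromal covariate, chosen after seeing the data, Dhcr7 was at 0.0079 and Scap at 0.0034.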

Other observations

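The 29 genes varied more among RIP1i libraries than among DMSO libraries. The range over libraries on the log2 scale was wider in RIP1i for 21 of 29 genes, against 56.9% of all genes tested, with a median range of 0.18 in RIP1i and 0.11 in DMSO, against 0.20 and 0.17 over all genes. Erg28 went the other way, with a range of 0.016 in RIP1i and 0.089 in DMSO. Sc5d and Insig1 had ranges of 0.45 and 0.30 in RIP1i, against 0.092 and 0.054 in DMSO.

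The 250 bases before the start also held an E-box (CACGTG) in 5 of 25 genes with a promoter in the table, Hsd17b7, Sc5d, Dhcr7, Insig1 and Scap, against 9.79% of tested genes. A GC box (GGGCGG on either strand) was found in 22 of 25, against 62.8% of tested genes.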
